A study of Mus musculus with 3 samples.

Results

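The 10 genes described here, *Postn*, *Tnc*, *Vcan*, *Sparc*, *Sparcl1*, *Thbs1*, *Thbs2*, *Thbs4*, *Fbln1* and *Fbln2*, encode matricellular proteins and close relatives of the bone matrix. They were found by symbol in a feature table of 55422 genes, and each symbol matched 1 row. Single cell RNA-sequencing of 3-week-old mouse long bone gave 3 droplet libraries. Metaphyseal replicates 1 and 2 came from the metaphysis of wild-type C57BL/6J males after magnetic depletion of CD45+, CD117+ and lineage-marked blood cells. The *Pdgfra-GFP* library came from GFP+ cells sorted from the metaphysis-epiphysis region of femur and tibia of males heterozygous for *Pdgfra-H2B-GFP*, in which a nuclear GFP reporter is knocked into the *Pdgfra* locus. All mice were untreated C57BL/6, and whether replicates came from separate animals is not given in the sources used here, so p-values may measure technical spread only. The libraries thus differ in genotype, region and enrichment together, these cannot be told apart, and the sorted library has no replicate. Which version of the droplet chemistry each library used could not be settled, so this may differ as well.

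Matricellular proteins sit in the extracellular matrix but mostly tune how cells attach, migrate and receive growth factors rather than bear load. Periostin (*Postn*) binds collagen and integrins and is named after the periosteum. Tenascin-C (*Tnc*) marks growing and healing connective tissue, versican (*Vcan*) is a large hyaluronan-binding proteoglycan, and SPARC or osteonectin (*Sparc*) is an abundant collagen-binding glycoprotein of bone. Thrombospondins are multimeric calcium-binding proteins, and fibulins decorate elastic fibres and basement membranes.

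The libraries held 25243314, 22082735 and 91747759 unique molecular identifiers (UMIs, each tagging 1 captured RNA molecule), and 2389, 2011 and 11319 cells were kept. Here and throughout, values of 3 libraries stand in the order metaphyseal replicate 1, metaphyseal replicate 2, *Pdgfra-GFP* library, and levels are UMIs per 1000000 (CPM) of the UMIs summed over the cells of a population. Populations were gated on marker panels that hold none of the 10 genes: septoclast (SC)-like cells, metaphyseal and diaphyseal mesenchymal stromal cell (mpMSC- and dpMSC-like) populations, osteoblast (OB)-like cells, endothelial (EC)-like cells with arterial (aEC), metaphyseal (mpEC) and bone marrow (bmEC) subtypes, and others. SC-like cells numbered 11, 9 and 216, mpMSC-like 89, 83 and 1544, dpMSC-like 715, 660 and 4130, and OB-like 210, 184 and 1842. The labels call the metaphyseal libraries mesenchymal stromal cells, but EC-like cells made up 1114 of 2389 and 886 of 2011 of their cells and numbered 291 in the sorted library. Of 91 panel markers, 84 were highest in their own population. Cells were gated on these same markers, so this count is no independent check of the gates. *Cd55* of the SC panel was higher in fibroblast-like cells, and *Mmp13* and *Aspn* of the mpMSC panel in SC-like and fibroblast-like cells. The SC-like cells carried the mpMSC panel at a summed 8882 CPM in metaphyseal replicate 1 and 10742 CPM in the sorted library, against 8649, 8832 and 8067 CPM in mpMSC-like cells. Near the edge of the gate, with a score just above that of the next best panel (under 1.25 times it), lay 11, 19 and 153 mpMSC-like, 2, 0 and 22 SC-like and 25, 20 and 114 dpMSC-like cells. UMIs of the reporter transgene were 0 in the metaphyseal libraries. Near-empty barcodes, those under 100 UMIs that carry free RNA, held 8.51%, 9.91% and 7.24% of all UMIs. Pairs of libraries shared 0, 9 and 10 cell barcodes, where the size of the barcode list, taken as the same for all libraries, gives 0.707, 3.98 and 3.35.

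Sums per library and population were compared with edgeR's quasi-likelihood test with the library as a block, and adjusted p-values are Benjamini-Hochberg values over all genes tested. A log2 fold change is scaled so that most genes stay near 0 and can depart from the plain CPM ratio. It is given with its standard error (SE), and a gene was called at an adjusted p under 0.05.

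**Figure D1:**
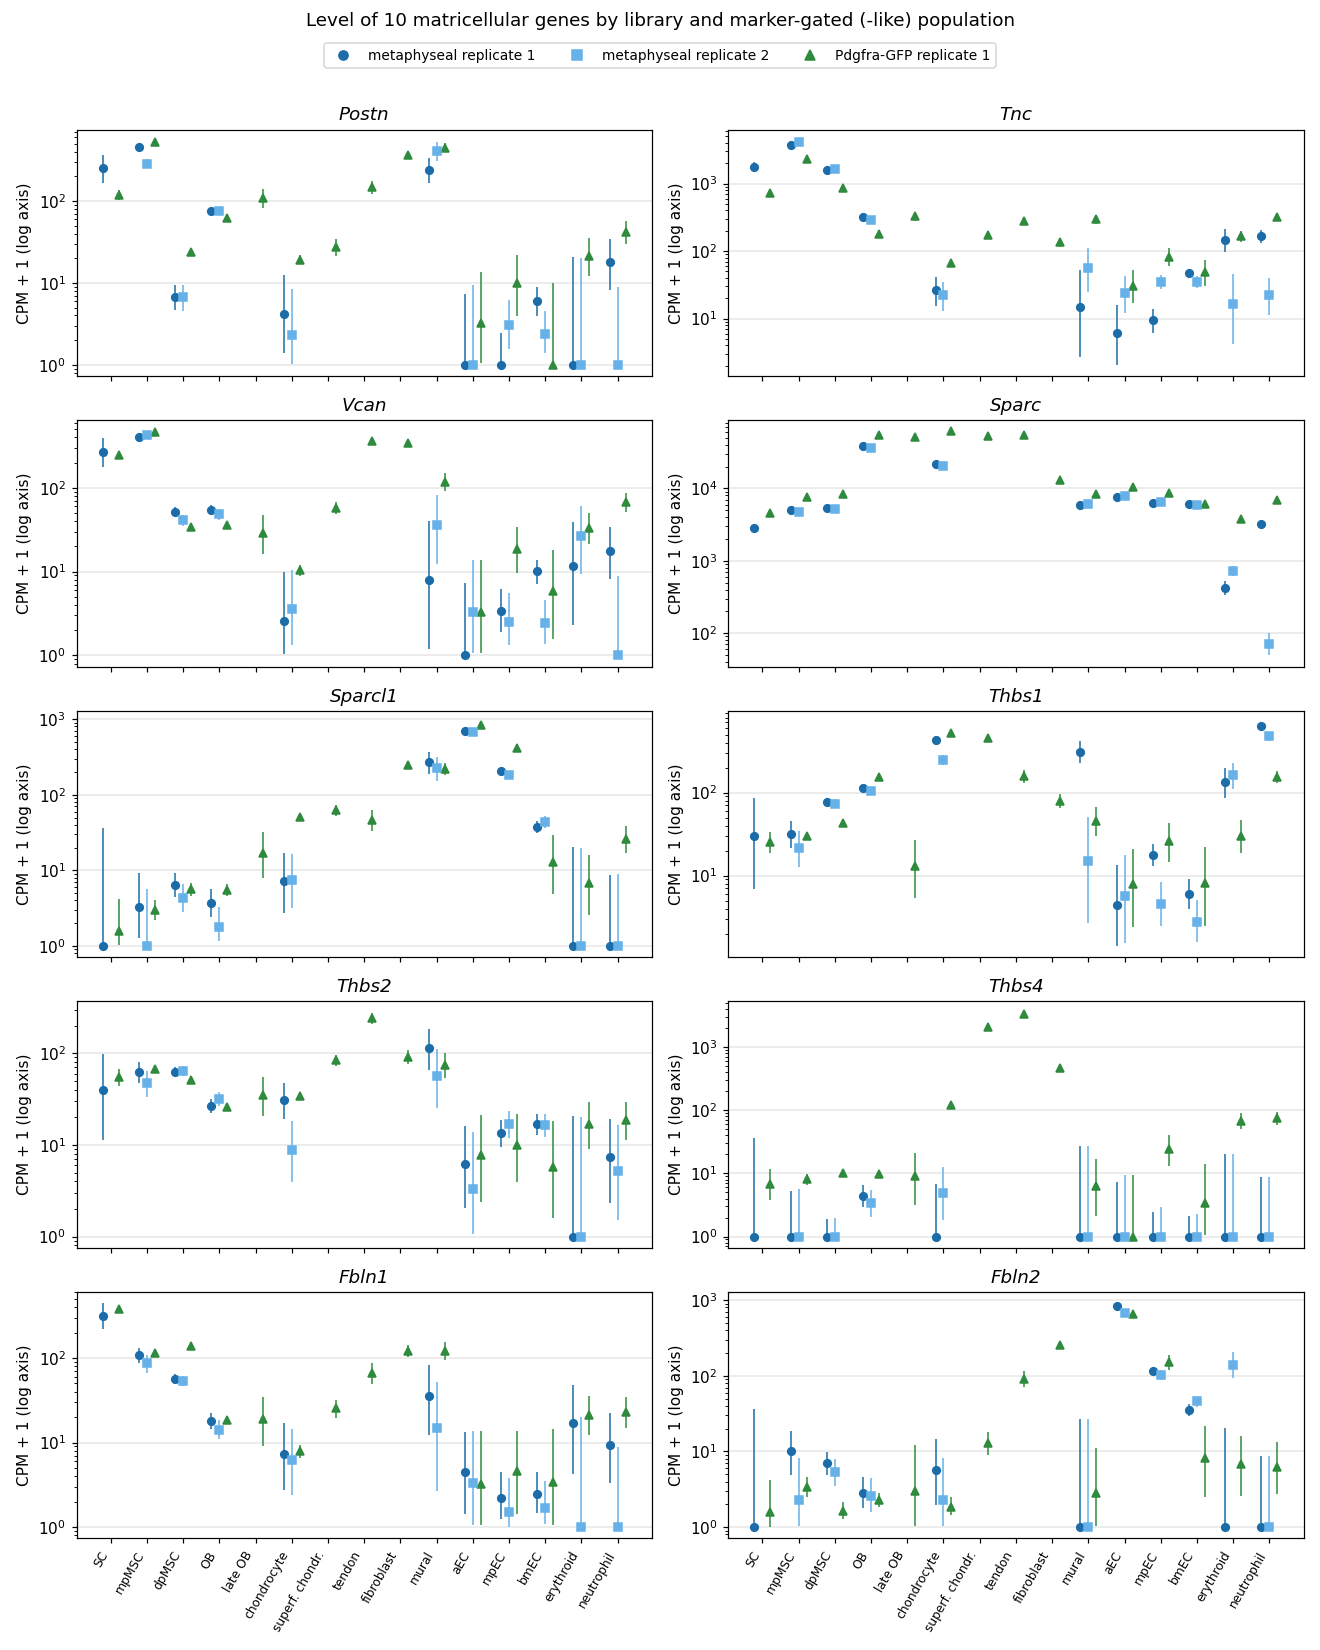
Level of each of the 10 genes (CPM + 1, logarithmic axis) in the gated populations, with 1 symbol per library and bars for exact 95% Poisson intervals. By mean over libraries *Postn*, *Tnc* and *Vcan* are highest in mpMSC-like cells, *Fbln1* in SC-like cells, and *Sparcl1* and *Fbln2* in aEC-like cells, while *Postn* of mural-like cells overlaps the mpMSC-like range.

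*Postn*, *Tnc* and *Vcan* shared a pattern, with their highest mean in mpMSC-like cells and lower levels in OB-like, chondrocyte-like and EC-like cells. *Postn* (ENSMUSG00000027750) is a protein-coding gene on chromosome 3, plus strand, from 54361109 to 54391037 in GRCm38, with up to 23 exons in a transcript. *Tnc* (ENSMUSG00000028364) lies on chromosome 4, minus strand, from 63959785 to 64047015, with up to 26 exons. *Vcan* (ENSMUSG00000021614) lies on chromosome 13, minus strand, from 89655312 to 89742509, with up to 15 exons. The 250 bases before a RefSeq start of each are shown because each of the 3 genes had its highest mean in mpMSC-like cells. Where a gene had 2 entries the one nearest its Gencode start was taken. Build GRCm38.p6 was used, and capitals mark matches, on either strand, to TATAAA (the TATA box), CCAAT (the CCAAT box), TGANTCA (bound by AP-1 factors), GGAATG (bound by TEAD factors) and GGGCGG (the GC box). None of these motifs contains another. The *Postn* window was chr3:54360857-54361106 (plus strand), the *Tnc* window chr4:64047016-64047265 (minus strand) and the *Vcan* window chr13:89742513-89742762 (minus strand), each written 5′ to 3′ on the gene's strand.
Postn: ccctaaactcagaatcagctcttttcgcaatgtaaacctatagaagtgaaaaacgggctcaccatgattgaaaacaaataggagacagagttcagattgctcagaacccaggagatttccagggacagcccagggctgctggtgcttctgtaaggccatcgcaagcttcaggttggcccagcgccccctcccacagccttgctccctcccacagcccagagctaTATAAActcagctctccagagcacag
Tnc: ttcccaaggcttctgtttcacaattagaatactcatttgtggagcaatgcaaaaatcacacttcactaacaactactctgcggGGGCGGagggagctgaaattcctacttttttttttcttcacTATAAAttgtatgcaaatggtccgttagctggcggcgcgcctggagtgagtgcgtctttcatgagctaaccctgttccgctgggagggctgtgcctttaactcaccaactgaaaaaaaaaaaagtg
Vcan: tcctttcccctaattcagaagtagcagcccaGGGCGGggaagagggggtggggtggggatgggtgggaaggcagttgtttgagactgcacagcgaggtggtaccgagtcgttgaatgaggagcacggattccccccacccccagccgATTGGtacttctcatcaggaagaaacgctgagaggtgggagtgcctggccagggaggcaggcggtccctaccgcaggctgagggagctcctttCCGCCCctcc
The *Postn* window held TATAAA 26 bases before the start. The *Tnc* window held TATAAA 126 bases and the GC box GGGCGG 167 bases before the start, and the *Vcan* window held CCAAT, on the other strand, 103 bases before it, and GGGCGG both 219 and, on the other strand, 10 bases before it. Of 32851 RefSeq windows of this length, 12.4% held the TATA box, 33.8% the CCAAT box, 6.75% the AP-1 motif, 12.6% the TEAD motif and 32.7% the GC box. A match is a description of letters, and a motif that was not found says only that its letters are absent from these windows. Of the 10 genes, 8 had an entry in this RefSeq table.

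*Postn* had the largest fold change of the 10 genes between the 2 stromal compartments. In mpMSC-like cells it stood at 457, 285 and 527 CPM, a mean of 423 ± 124 (SD, n = 3). In dpMSC-like cells, the *Lepr* and *Cxcl12* expressing stroma of the marrow, it stood at 5.70, 5.63 and 22.7 CPM. The groups did not overlap, and the highest dpMSC-like value came from the sorted library. Near-empty barcodes held 37.3, 39.3 and 102 CPM of *Postn*, above the dpMSC-like level in every library. The log2 fold change of dpMSC-like against mpMSC-like cells was −5.31 (SE 0.56, edgeR adjusted p = 6.16e-08). The study itself uses *Postn* to name mpMSCs, so this difference is no independent evidence for that name. After thinning each cell to 2000 UMIs, 27.0%, 28.9% and 49.8% of mpMSC-like cells held a *Postn* UMI, against 0.559%, 0.455% and 2.71% of dpMSC-like cells (unthinned 56.2%, 49.4% and 69.9% against 1.82%, 1.36% and 5.21%). The share in erythroid-like cells, which should lack the gene, was 0%, 0% and 1.41% of 14, 12 and 71 thinned cells. Their median was 12091, 11545 and 8383 UMIs before thinning, against 9152, 9756 and 6113 in mpMSC-like cells. They also carried the dpMSC panel at a summed 1504, 381 and 2089 CPM. Exact binomial intervals of the erythroid-like shares reached up to 23.2%, 26.5% and 7.60%. The dpMSC-like shares lay inside these intervals, which are too wide to tell whether those shares exceed background. Of all *Postn* UMIs in cells, mpMSC-like cells held 43.4%, 31.2% and 54.4% while making up 3.73%, 4.13% and 13.6% of cells.

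*Vcan* followed *Postn* between these compartments. It stood at 405, 422 and 457 CPM in mpMSC-like cells and at 50.8, 40.2 and 33.1 CPM in dpMSC-like cells. The values were tight within each population and did not overlap. The log2 fold change was −3.35 (SE 0.42, edgeR adjusted p = 9.63e-07). Thinned shares of cells with a UMI were 44.9%, 49.4% and 45.0% in mpMSC-like and 9.37%, 6.82% and 5.12% in dpMSC-like cells, where erythroid-like cells gave 7.14%, 0% and 4.23%. Tendon-like cells, found in the sorted library, had 362 CPM of *Vcan*. They had 441 CPM under a stricter gate and 605 CPM when cells were named by cluster, so the top rank of mpMSC-like cells there depends on the gate.

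*Tnc* was high in both stromal compartments. It stood at 3725, 4161 and 2340 CPM in mpMSC-like cells and at 1610, 1621 and 854 CPM in dpMSC-like cells. Each library gave a lower dpMSC-like value, and in both populations the sorted library was lowest. The log2 fold change of −1.31 (SE 0.62) missed the threshold (edgeR adjusted p = 0.138). Without the *Pdgfra-GFP* library it was −1.34 with an adjusted p of 0.00957. Thinned shares of cells with a *Tnc* UMI were 100%, 98.8% and 96.0% in mpMSC-like and 89.2%, 88.6% and 67.7% in dpMSC-like cells, far above the 7.14%, 16.7% and 16.9% of erythroid-like cells. The thinned mpMSC-like cells held a median of 7, 8 and 4 *Tnc* UMIs each, and a variance over mean of 2.77, 3.66 and 2.05, where counting noise alone gives 1. Near-empty barcodes held 760, 788 and 557 CPM of *Tnc*, below the dpMSC-like level of the same library each time.

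Of the 10 genes, 2 were called between dpMSC-like and mpMSC-like cells, *Postn* and *Vcan*, both lower in dpMSC-like cells, while 22.3% of the 13251 genes tested were called. The median log2 fold change of the 10 was −0.13, against 0.10 over all genes. *Sparcl1* (log2 fold change 1.70, edgeR adjusted p = 0.0701) and *Thbs1* (1.16, adjusted p = 0.220) missed the threshold. Without the *Pdgfra-GFP* library *Thbs1* had a log2 fold change of 1.49 (adjusted p = 0.0301), and *Fbln1* one of −0.88 (adjusted p = 0.000962). *Fbln1* stood at 55.3, 53.0 and 139 CPM in dpMSC-like cells, below the mpMSC-like 107 and 85.7 CPM in the metaphyseal libraries and above the 112 CPM of the sorted one.

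*Fbln1* encodes fibulin-1, which binds fibronectin and basement membrane proteins, and was the 1 gene of the 10 called in SC-like cells, the cartilage-resorbing cells next to the growth plate, against 3.93% of the 13251 genes tested. It stood at 316 CPM in the 11 SC-like cells of metaphyseal replicate 1 and at 376 CPM in the 216 of the sorted library. In the 9 cells of metaphyseal replicate 2, too few for the test, it stood at 521 CPM. In mpMSC-like cells it stood at 107, 85.7 and 112 CPM, so each SC-like value exceeded every mpMSC-like value, with ratios of 2.96 and 3.35 within the libraries tested. The log2 fold change was 1.40 (SE 0.30, edgeR adjusted p = 0.00558, 2 libraries). With sums of at least 5 cells, a limit chosen after seeing the data, all 3 libraries entered and it was 1.71 (SE 0.30, adjusted p = 0.000321). The call was lost without the library block (adjusted p = 0.189) and in DESeq2 (adjusted p = 0.175). *Fbln1* was left out of the gate panels because others have used it to name SCs. Its call is therefore no independent evidence for that name. Thinned shares of cells with a *Fbln1* UMI were 36.4% and 46.6% in SC-like cells and 19.1%, 15.7% and 18.2% in mpMSC-like cells, against 0%, 0% and 1.41% in erythroid-like cells (unthinned 72.7% and 75.5% against 52.8%, 41.0% and 37.3%).

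The other stromal members had lower fitted levels in SC-like cells, none of them past the threshold. *Postn* stood at 249, 291 and 117 CPM in SC-like cells, *Tnc* at 1782, 1260 and 723 CPM, and *Vcan* at 268, 618 and 246 CPM, where the middle value of each rests on 9 cells. *Postn* of metaphyseal replicate 2 was level with its mpMSC-like value of 285 CPM, and its *Vcan* exceeded the mpMSC-like 422 CPM. The log2 fold changes were −1.80 (edgeR adjusted p = 0.148) for *Postn*, −1.89 (adjusted p = 0.228) for *Tnc* and −1.09 (adjusted p = 0.334) for *Vcan*. With thinned cells *Postn* (−1.88, edgeR adjusted p = 0.000405) and *Tnc* (−1.90, adjusted p = 0.0158) passed the threshold. With no filter on low counts *Postn*, *Tnc*, *Vcan* and *Sparc* passed it. The median of the 10 was −1.13, against −0.08 over all genes. It includes *Sparcl1* and *Fbln2*, each with 0 and 1 UMI in the 2 SC-like sums tested.

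**Figure D2:**
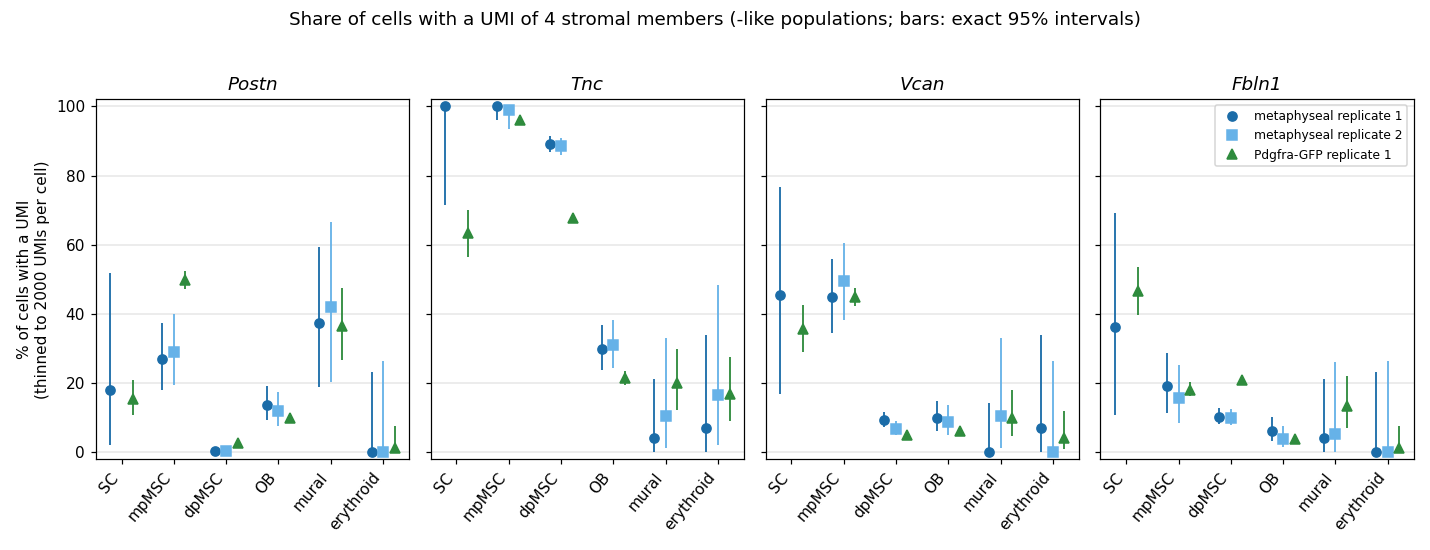
Percent of cells with a UMI of *Postn*, *Tnc*, *Vcan* and *Fbln1* after thinning to 2000 UMIs per cell, by population and library, with exact 95% binomial intervals. *Postn* falls from 27.0% to 49.8% of mpMSC-like cells to under 3% of dpMSC-like cells, while *Fbln1* is highest in SC-like cells, at 36.4% and 46.6%.

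In OB-like cells, which deposit and mineralize bone matrix, the 4 stromal genes were lower and *Sparc* and *Thbs1* higher than in mpMSC-like cells. *Fbln1* (ENSMUSG00000006369, chromosome 15, 85205949 to 85286535, plus strand) stood at 17.1, 13.3 and 17.3 CPM in OB-like cells, a log2 fold change of −1.91 (SE 0.26, edgeR adjusted p = 2.29e-06). *Vcan* stood at 53.6, 47.3 and 34.8 CPM (log2 fold change −2.48, SE 0.41, adjusted p = 2.30e-05). *Tnc* stood at 323, 290 and 177 CPM (log2 fold change −2.99, SE 0.66, adjusted p = 0.000724). None of these values overlapped the mpMSC-like ones. *Postn* stood at 74.3, 74.7 and 60.9 CPM, also below every mpMSC-like value, with a log2 fold change of −1.78 (SE 0.47, adjusted p = 0.00408). This call was lost without metaphyseal replicate 1 (adjusted p = 0.0766), without the block (adjusted p = 0.0910) and in DESeq2 (adjusted p = 0.115).

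*Sparc* (ENSMUSG00000018593, chromosome 11, 55394500 to 55423183, minus strand) rose with the matrix-forming cells. It stood at 38381, 36373 and 54882 CPM in OB-like cells and at 5116, 4722 and 7505 CPM in mpMSC-like cells. The ratios within a library were 7.50, 7.70 and 7.31, closely alike, although the sorted library was highest in both populations. Its log2 fold change was 3.65 (SE 0.81, edgeR adjusted p = 0.000859). OB-like cells held 64.4%, 63.9% and 45.6% of all *Sparc* UMIs in cells. Near-empty barcodes held 8353, 8745 and 26484 CPM of *Sparc*, above the mpMSC-like level in every library. A *Sparc* UMI was held by 14.3%, 25% and 73.2% of thinned erythroid-like cells, the last in the sorted library. In that library thinned mpMSC-like cells held a median of 12 *Sparc* UMIs. The median was 1 in erythroid-, B cell- and macrophage-like cells and 2 in neutrophil-like cells. What part of the lower *Sparc* levels was free RNA was not tested.

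*Thbs1* (ENSMUSG00000040152, chromosome 2, 118111876 to 118127133, plus strand), whose product activates latent TGF-beta and restrains vessel growth, stood at 113, 105 and 152 CPM in OB-like cells and at 30.7, 20.5 and 28.7 CPM in mpMSC-like cells. The groups did not overlap. Near-empty barcodes held 88.9, 79.5 and 165 CPM of *Thbs1*, so the OB-like level was below that of free RNA in the sorted library and little above it in the others. This gave a log2 fold change of 2.98 (SE 0.66, edgeR adjusted p = 0.000791). Of the 10 genes, 8 were called between OB-like and mpMSC-like cells, 4 higher and 4 lower, against 34.4% of the 13251 genes tested. The median of the 10 was −0.31, against −0.03 over all genes. The remaining 2 calls rested on few UMIs. *Sparcl1* had 12, 3 and 95 UMIs in OB-like and 2, 0 and 19 in mpMSC-like cells (edgeR adjusted p = 0.0225), and its call was lost without metaphyseal replicate 1 (adjusted p = 0.0639), without the *Pdgfra-GFP* library (adjusted p = 0.420), without the block (0.274), in DESeq2 (0.190), under the stricter gate (0.221) and from clusters (0.388). *Thbs4* had 15, 9 and 185 UMIs against 0, 0 and 69 (edgeR adjusted p = 0.0102), and its call was lost without metaphyseal replicate 1 (adjusted p = 0.0863), without replicate 2 (adjusted p = 0.0656), without the block (0.686), in DESeq2 (0.0876) and with thinned cells (0.0808).

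Late OB-like cells, gated on the osteocyte markers *Dmp1*, *Mepe*, *Phex* and *Ptprz1*, numbered 9, 9 and 59, and only the sorted library held 10 or more. There *Sparc* stood at 51550 CPM (exact 95% Poisson interval 50925 to 52181), *Postn* at 107 CPM (80.6 to 140) and *Thbs1* at 11.9 CPM (4.37 to 25.9). In OB-like cells of the same library these stood at 54882, 60.9 and 152 CPM. The intervals cover counting error only, and with 1 library there is no test. With sums of at least 5 cells, the log2 fold change of *Thbs1* in late OB-like against OB-like cells was −2.86 (edgeR adjusted p = 0.0517). None of the 10 genes was called in that comparison, against 10.0% of the 13191 genes tested there, and of the 10 only *Thbs1* had an unadjusted p under 0.05.

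**Figure D3:**
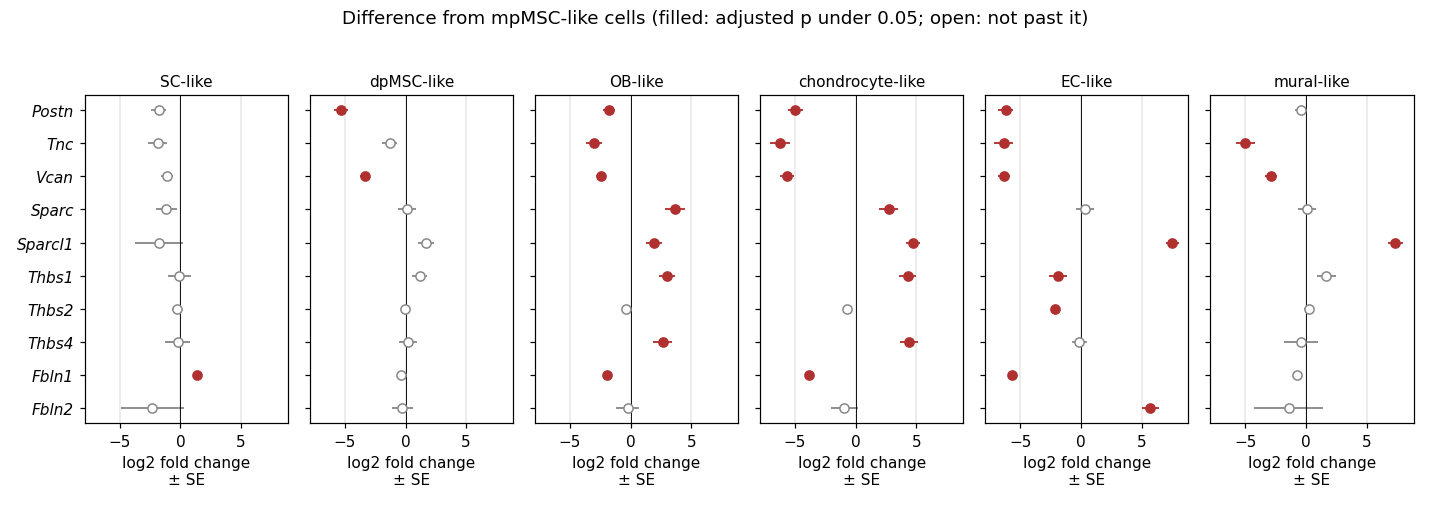
Log2 fold change of each gene in 6 populations against mpMSC-like cells, with bars of 1 SE, filled points for an adjusted p under 0.05 and open points otherwise. *Postn*, *Tnc* and *Vcan* lie left of 0 in the OB-, chondrocyte- and EC-like panels, and *Sparcl1* lies far right in the EC-like (7.55) and mural-like (7.36) panels.

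Chondrocyte-like cells, which build the growth plate cartilage, had very little *Postn*, *Tnc*, *Vcan* and *Fbln1* and carried high *Thbs1* and *Sparc*. *Vcan* stood at 1.57, 2.63 and 9.32 CPM (log2 fold change against mpMSC-like cells −5.66, SE 0.54, edgeR adjusted p = 4.16e-09). *Fbln1* stood at 6.29, 5.25 and 6.88 CPM (−3.84, SE 0.36, adjusted p = 2.37e-09). *Tnc* stood at 25.2, 21.0 and 64.7 CPM (−6.24, SE 0.78, adjusted p = 4.01e-07). All of these lay below the near-empty level of their library. *Postn* stood at 3.15, 1.31 and 18.3 CPM, with a log2 fold change of −4.99 (SE 0.61, edgeR adjusted p = 2.55e-07).

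*Thbs1* stood at 425, 246 and 525 CPM in chondrocyte-like cells, each value above all mpMSC- and OB-like ones. This was a log2 fold change of 4.28 from mpMSC-like cells (SE 0.69, edgeR adjusted p = 1.49e-05). Thinned shares of cells with a *Thbs1* UMI were 24.4%, 39.5% and 51.3%, against 3.37%, 6.02% and 6.08% of mpMSC-like and 14.3%, 8.33% and 5.63% of erythroid-like cells (unthinned 51.2%, 63.2% and 81.0% in chondrocyte-like cells). *Sparc* stood at 21457, 20227 and 61368 CPM (log2 fold change 2.72, SE 0.78, edgeR adjusted p = 0.00783), and the sorted library stood well apart from the metaphyseal ones. Of the 10 genes, 8 were called in chondrocyte-like cells, 4 higher and 4 lower, against 34.1% of the 13251 genes tested. The median of the 10 was −0.82, against 0.01 over all genes.

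The other 2 higher calls, *Sparcl1* and *Thbs4*, came mostly from the sorted library. *Sparcl1* had 4, 5 and 700 UMIs in chondrocyte-like cells, and its log2 fold change of 4.73 (edgeR adjusted p = 4.31e-07) became 2.68 (adjusted p = 0.0651) without the *Pdgfra-GFP* library. *Thbs4* had 0, 3 and 1673 UMIs there, against 0, 0 and 69 in mpMSC-like cells (log2 fold change 4.40, edgeR adjusted p = 3.64e-05). Its adjusted p was 0.0737 without the block and 0.0958 in DESeq2, and without the *Pdgfra-GFP* library the gene did not pass the filter on low counts. Markers of superficial chondrocytes and tendon moved with these 2 genes in chondrocyte-like cells. The 4 superficial chondrocyte markers, of which 2, 4 and 4 were detected, summed to 239, 358 and 1639 CPM, and the 4 tendon markers, of which 1, 2 and 4 were detected, to 9.44, 22.3 and 96.7 CPM. The 2 genes differed in those populations of the sorted library. Superficial chondrocyte- and tendon-like cells had 61.1 and 45.3 CPM of *Sparcl1*, beside 50.2 CPM in chondrocyte-like cells. Of *Thbs4* they had 2112 and 3393 CPM, beside 120 CPM. The part of these markers in the result was not tested for either gene. *Thbs2* did not pass the threshold (log2 fold change −0.72, adjusted p = 0.0734), but did without the *Pdgfra-GFP* library (−1.26, adjusted p = 0.0174).

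*Thbs4* (ENSMUSG00000021702, chromosome 13, 92751590 to 92794818, minus strand), a thrombospondin of tendon and muscle attachments, came almost entirely from the sorted library. The *Thbs4* UMIs of all cells numbered 17 and 12 in the metaphyseal libraries and 11839 after the GFP sort. The sorted library is the library that took in the epiphysis and that held 101 tendon-like and 449 superficial chondrocyte-like cells, gated on *Tnmd*, *Scx*, *Mkx* and *Kera* and on *Prg4*, *Cilp*, *Cilp2* and *Clu*. The metaphyseal libraries held 1 or 0 cells of each. *Thbs4* stood at 3393 CPM in tendon-like cells (exact 95% Poisson interval 3266 to 3524), at 2112 CPM in superficial chondrocyte-like cells (2055 to 2170) and at 465 CPM in fibroblast-like cells (428 to 504). Chondrocyte-like cells had 120 CPM, below the 154 CPM of the near-empty barcodes. Thinned shares of cells with a UMI were 92.1%, 69.9%, 20.9% and 15.5% in this order, against 7.04% of erythroid-like cells. Fibroblast-like cells also carried the tendon panel at 324 CPM and the superficial chondrocyte panel at 2614 CPM, all 4 markers of each detected. Tendon-like cells carried the fibroblast panel at 8027 CPM and the superficial chondrocyte panel at 3318 CPM, beside 5478 CPM of their own panel. Near the edge of the gate lay 31 of the tendon-like and 69 of the superficial chondrocyte-like cells. Under the stricter gate *Thbs4* stood at 3606, 2606 and 394 CPM in tendon-, superficial chondrocyte- and fibroblast-like cells. The part of these markers in the *Thbs4* levels was not tested. With 1 library the *Thbs4* differences have no replicate check.

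**Figure D4:**
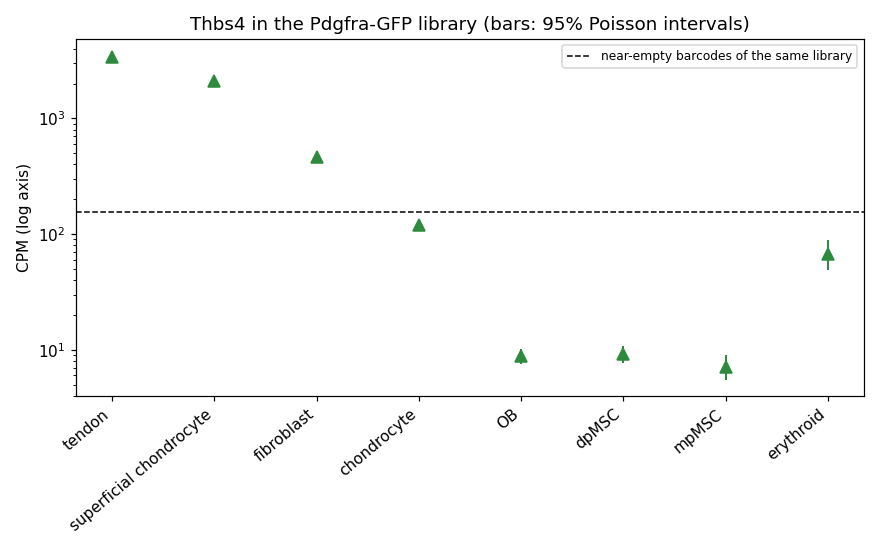
*Thbs4* level (CPM, logarithmic axis) by population in the *Pdgfra-GFP* library, with exact 95% Poisson intervals; the dashed line is the level of near-empty barcodes (154 CPM). Tendon-, superficial chondrocyte- and fibroblast-like cells lie above the line and all other plotted populations under it.

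*Thbs2* (ENSMUSG00000023885, chromosome 17, 14665500 to 14694235, minus strand), an inhibitor of vessel growth in connective tissue, had overlapping levels in mpMSC-, dpMSC- and mural-like cells. It stood at 61.4, 46.0 and 67.1 CPM in mpMSC-like, 61.7, 63.2 and 49.95 CPM in dpMSC-like and 112, 55.8 and 73.2 CPM in mural-like cells. In OB-like cells it stood at 25.9, 31.0 and 24.8 CPM, below every mpMSC-like value, with a log2 fold change of −0.36 that missed the threshold (edgeR adjusted p = 0.353). The log2 fold changes were −0.01 (SE 0.27, edgeR adjusted p = 0.993) in dpMSC-like and 0.25 (SE 0.38, edgeR adjusted p = 0.811) in mural-like cells. In the sorted library tendon-like cells had 240 CPM (exact 95% Poisson interval 207 to 277), above fibroblast-like (90.7 CPM, 74.9 to 109) and superficial chondrocyte-like cells (82.6 CPM, 71.8 to 94.7). These gates shared markers, as given for *Thbs4* above, and the part of this was not tested. EC-like cells had 14.4, 14.6 and 7.75 CPM, a log2 fold change against mpMSC-like cells of −2.09 (SE 0.31, edgeR adjusted p = 2.77e-06).

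*Thbs1* stood at 632, 473 and 154 CPM in neutrophil-like cells. Near-empty barcodes had 88.9, 79.5 and 165 CPM, so the sorted library's value lay below its free RNA level and the metaphyseal values well above theirs. The thinned shares of neutrophil-like cells with a *Thbs1* UMI were 42.4%, 39.4% and 23.9%. In metaphyseal replicate 2 the tenth of thinned cells with most held 71.4% of the *Thbs1* UMIs, and the median was 0. Neutrophil-like cells also carried the OB panel at a summed 632, 27.6 and 7345 CPM and the dpMSC panel at 1169, 80.6 and 3487 CPM. The part of these markers in the *Thbs1* levels was not tested. The metaphyseal libraries had been depleted of blood cells, and held 33 neutrophil-like cells each. In metaphyseal replicate 1 the 9 macrophage-like cells stood at 1094 CPM and the 97 of the sorted library at 80.1 CPM.

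Fibroblast-like cells of the sorted library, 225 cells gated on *S100a4*, *Igfbp6*, *Clec3b*, *Dpt*, *Mfap5* and *Pi16*, carried many of the 10 genes. *Postn* stood at 361 CPM (exact 95% Poisson interval 329 to 396), *Vcan* at 339 CPM (308 to 373), *Fbln1* at 120 CPM (102 to 141), *Fbln2* at 254 CPM (227 to 283) and *Sparcl1* at 250 CPM (223 to 279). mpMSC-like cells of the same library had 527, 457, 112, 2.36 and 1.95 CPM of these. *Tnc* was at 135 CPM (115 to 157) in fibroblast-like cells, against 2340 CPM in mpMSC-like cells and 557 CPM in near-empty barcodes. The metaphyseal libraries held 3 and 1 fibroblast-like cells, so this comparison was not tested. These UMIs were unevenly spread over the cells. After thinning, 21.8% of fibroblast-like cells held a *Postn* UMI, 33.2% a *Vcan*, 15.5% a *Fbln1*, 30.9% a *Fbln2* and 18.6% a *Sparcl1* UMI. Unthinned, the shares were 30.2%, 50.2%, 25.8%, 53.8% and 30.7% in this order. The tenth of thinned cells with most held 79.4% of the *Postn*, 57.5% of the *Vcan*, 82.4% of the *Fbln1*, 57.6% of the *Fbln2* and 78.2% of the *Sparcl1* UMIs. When cells were named by cluster, the 297 fibroblast-like cells had 225 CPM of *Fbln1*.

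*Sparcl1*, which encodes hevin, a relative of SPARC, and *Fbln2*, which encodes fibulin-2 of vessel basement membranes, had their highest mean level in aEC-like cells. *Sparcl1* (ENSMUSG00000029309, chromosome 5, 104079111 to 104113733, minus strand) stood at 165, 146 and 427 CPM in EC-like cells and at 2.27, 0 and 1.95 CPM in mpMSC-like cells. *Fbln2* (ENSMUSG00000064080, chromosome 6, 91212455 to 91272540, plus strand) stood at 138, 122 and 255 CPM in EC-like and at 9.10, 1.28 and 2.36 CPM in mpMSC-like cells. Every EC-like value lay above every mpMSC-like one, and the sorted library, with 291 EC-like cells against 1114 and 886, gave the highest value of both genes. The mix of subtypes differed, with 79, 61 and 85 aEC-like cells among them, and its part in these pooled values was not tested. Within the named subtypes the sorted library was highest for both genes only in mpEC-like cells. Its *Fbln2* was lowest in aEC- and bmEC-like cells. The log2 fold changes were 7.55 (SE 0.55, edgeR adjusted p = 1.11e-11) for *Sparcl1* and 5.73 (SE 0.67, edgeR adjusted p = 5.50e-08) for *Fbln2*. The mpMSC-like sums behind them held only 2, 0 and 19 UMIs of *Sparcl1* and 8, 1 and 23 of *Fbln2*.

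Both genes differed between the endothelial subtypes. *Sparcl1* stood at 687, 679 and 826 CPM in aEC-like, 203, 181 and 413 CPM in mpEC-like and 36.8, 42.5 and 11.99 CPM in bmEC-like cells. *Fbln2* stood at 832, 681 and 649 CPM in aEC-like, 115, 102 and 150 CPM in mpEC-like and 34.4, 45.0 and 7.19 CPM in bmEC-like cells. The ranges of the 3 subtypes did not overlap in either gene, and mpEC-like cells entered no test. Near-empty barcodes held 86.1, 75.9 and 24.8 CPM of *Sparcl1* and 42.8, 48.9 and 8.88 CPM of *Fbln2*. In every library both lay above the bmEC-like level. The mpMSC-like cells of the same libraries held 2.27, 0 and 1.95 CPM of *Sparcl1* and 9.10, 1.28 and 2.36 CPM of *Fbln2*. These lay below the bmEC-like level of each library. What part of the bmEC-like level was free RNA was not tested. Between aEC-like and bmEC-like cells the log2 fold change was 4.14 (SE 0.40, edgeR adjusted p = 6.02e-10) for *Sparcl1* and 4.41 (SE 0.44, edgeR adjusted p = 1.24e-09) for *Fbln2*. The summed fibroblast and dpMSC panels also stood higher in aEC-like than in bmEC-like cells. The 6 fibroblast markers, of which 3, 3 and 4 were detected, summed to 347, 465 and 273 CPM in aEC-like and, with 3 detected in each library, to 2.06, 10.5 and 14.4 CPM in bmEC-like cells. The 6 dpMSC markers, all detected, summed to 2531, 3121 and 1830 CPM in aEC-like and to 252, 246 and 971 CPM in bmEC-like cells. The dpMSC-like cells themselves held 5.46, 3.33 and 4.61 CPM of *Sparcl1* and 5.94, 4.35 and 0.624 CPM of *Fbln2*. Fibroblast-like cells of the sorted library held 250 CPM of *Sparcl1* and 254 CPM of *Fbln2*. Which markers carried the panel sums, and their part in the result, was not tested. *Sparcl1* and *Fbln2* were the 2 genes of the 10 called in this comparison, both higher in aEC-like cells, against 17.3% of the 12677 genes tested. The median of the 10 was −0.51, against −0.14 over all genes. *Thbs2* missed the threshold (log2 fold change −1.71, adjusted p = 0.0739) and passed it without the *Pdgfra-GFP* library (−2.03, adjusted p = 0.0346).

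Thinned shares showed the same order from cell to cell. A *Fbln2* UMI was found in 81.0%, 70.5% and 70% of aEC-like, 18.1%, 20% and 19.4% of mpEC-like and 6.60%, 7.38% and 0% of bmEC-like cells (unthinned 92.4%, 90.2% and 81.2% of aEC-like cells). The erythroid-like shares were 0%, 16.7% and 0%, the middle one from 12 cells that together held 27 *Fbln2* UMIs. The aEC-like cells held 48.0%, 39.7% and 29.5% of all *Fbln2* UMIs in cells while making up 3.31%, 3.03% and 0.751% of cells. The EC-like cells of the sorted library passed a gate for GFP. Their reporter UMIs stood at 467 CPM in the 85 aEC-like, 32.1 CPM in the 102 mpEC-like and 0 CPM in the 78 bmEC-like cells, where a count of 0 allows up to 7.19 CPM.

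**Figure D5:**
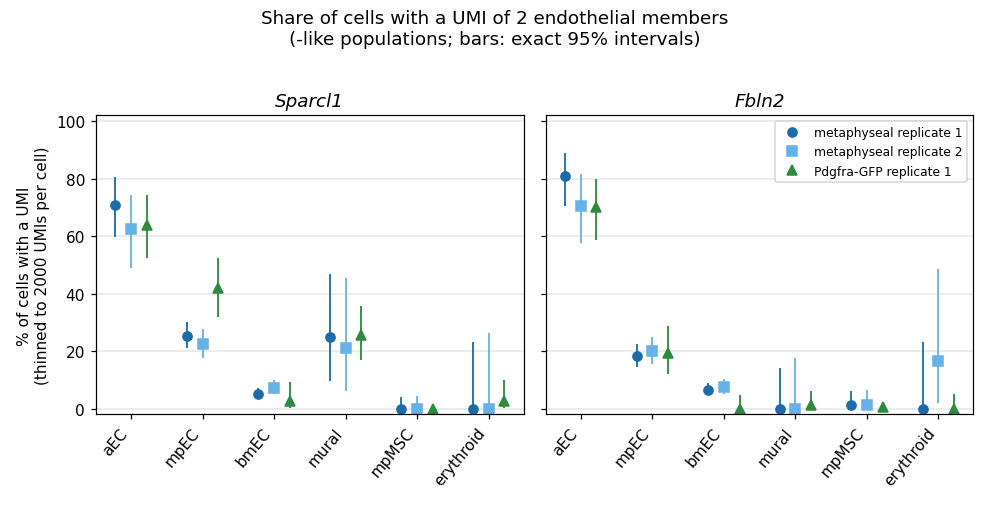
Percent of cells with a UMI of *Sparcl1* and *Fbln2* after thinning to 2000 UMIs per cell, by population and library, with exact 95% binomial intervals. In both genes aEC-like cells (62.3% or more) lie above mpEC-like cells and these above bmEC-like cells in every library.

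EC-like cells had little of the stromal genes. *Fbln1* stood at 1.72, 1.05 and 3.88 CPM (log2 fold change against mpMSC-like cells −5.63, SE 0.36, edgeR adjusted p = 1.37e-12). *Postn* (−6.19), *Tnc* (−6.35) and *Vcan* (−6.31) were lower by similar amounts, with the largest adjusted p of the 3 at 1.14e-07. *Sparc* stood at 6315, 6253 and 8459 CPM, overlapping the mpMSC-like range (log2 fold change 0.35, SE 0.73, edgeR adjusted p = 0.757). *Thbs1* was just past the threshold (−1.85, SE 0.74, adjusted p = 0.0469), which was lost without metaphyseal replicate 1 (adjusted p = 0.154), without replicate 2 (adjusted p = 0.143) and under 4 further alternatives. Of the 10 genes, 8 were called, 2 higher and 6 lower, against 39.5% of the 13251 genes tested. The median of the 10 was −1.97, against 0.03 over all genes.

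Mural-like cells, the pericytes and smooth muscle of vessels, had both *Postn* and *Sparcl1*, without a test of whether single cells held both. *Postn* stood at 238, 405 and 445 CPM, overlapping the mpMSC-like range, with a log2 fold change of −0.39 (SE 0.50, edgeR adjusted p = 0.757). *Sparcl1* stood at 266, 223 and 218 CPM, far above the mpMSC-like values, with a log2 fold change of 7.36 (SE 0.60, edgeR adjusted p = 1.55e-09). Thinned shares of mural-like cells with a UMI were 37.5%, 42.1% and 36.7% for *Postn* and 25%, 21.1% and 25.6% for *Sparcl1*, and in the sorted library the tenth of cells with most held 57.0% of the *Postn* and 75.9% of the *Sparcl1* UMIs. *Tnc* stood at 14.0, 55.8 and 295 CPM (−4.99, SE 0.76, adjusted p = 3.30e-05) and *Vcan* at 7.004, 34.9 and 116 CPM (−2.88, SE 0.50, adjusted p = 0.000197). Both stood highest in the sorted library. Markers of stroma were present in the gate: the 6 mpMSC markers, of which 3, 4 and 6 were detected, summed to 841, 1200 and 1514 CPM. Under a stricter gate *Postn* of the sorted library stood at 446 CPM, while *Tnc* fell to 57.7 CPM and *Vcan* to 28.8 CPM. Of the 10 genes, 3 were called in mural-like cells, 1 higher and 2 lower, against 9.89% of the 13251 genes tested. The median of the 10 was −0.41, against −0.10 over all genes.

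The single high *Thbs1* value among mural-like cells belonged to 1 library. *Thbs1* stood at 308, 14.0 and 44.6 CPM, with a log2 fold change of 1.68 that missed the threshold (edgeR adjusted p = 0.196). Neutrophil markers of these cells summed to 5148, 6.98 and 91.1 CPM, with 3, 1 and 4 of the 4 detected. Under the stricter gate *Thbs1* stood at 35.1, 14.6 and 34.1 CPM. Without the *Pdgfra-GFP* library, *Thbs1* (2.37, adjusted p = 0.0395) and *Fbln1* (−2.24, adjusted p = 0.00397) passed the threshold in mural-like cells.

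Relatives of the 10 genes, 28 listed members of their families of which 23 were tested, are counted here beside the 3.93% (SC), 22.3% (dpMSC), 34.4% (OB), 34.1% (chondrocyte), 39.5% (EC), 9.89% (mural) and 17.3% (aEC against bmEC) of all genes called. In SC-like cells 1 was higher and 3 lower than in mpMSC-like cells, and the 3 were *Tnn*, a tenascin of bone (−4.87, SE 1.21, edgeR adjusted p = 0.0183), *Fbln5*, which assembles elastic fibres (−3.88, SE 0.69, edgeR adjusted p = 0.000968), and *Tgfbi*, the closest relative of periostin (−2.59, SE 0.63, edgeR adjusted p = 0.0146). In dpMSC-like cells 5 were higher and 5 lower. *Smoc1*, a SPARC relative, had a mean of 93.4 ± 11.9 CPM (SD, n = 3) there and 5.14 ± 3.44 CPM in mpMSC-like cells (log2 fold change 4.50). *Tnn* was lower (−4.86). In OB-like cells 5 were higher and 6 lower, with *Fbln5* at 10.3 ± 4.32 against 497 ± 58.1 CPM (SD, n = 3; log2 fold change −4.95). DESeq2 called fewer, with 0 higher and 3 lower in SC-like, 2 and 3 in dpMSC-like and 1 and 5 in OB-like cells.

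Chondrocyte-like cells had 12 relatives higher and 4 lower (9 and 3 in DESeq2). The largest was *Comp*, a thrombospondin of cartilage, at 3644 ± 793 CPM against 28.1 ± 24.3 CPM (SD, n = 3; log2 fold change 8.39, edgeR adjusted p = 7.59e-08), followed by *Fbln7* (7.45) and *Ccn6* (6.60). EC-like cells had 3 higher and 14 lower (2 and 14 in DESeq2), among them *Spp1*, osteopontin of mineralized matrix (−6.39), and mural-like cells 0 higher and 6 lower by edgeR, with 0 and 11 at an unadjusted p under 0.05 and 0 and 7 in DESeq2. In aEC-like against bmEC-like cells 2 were higher, *Fbln5* (4.04, edgeR adjusted p = 3.43e-08) among them, and 2 lower, with the same counts in DESeq2. *Fbln5* was also lower in mural-like than in mpMSC-like cells (−3.56, edgeR adjusted p = 7.79e-05).

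Receptors and binding partners, 16 genes and all tested, gave 0 calls in SC-like cells by edgeR and 0 in DESeq2, with 1 higher and 2 lower at an unadjusted p under 0.05. In dpMSC-like cells 2 were higher and 5 lower, with fibronectin (*Fn1*) at 113 ± 17.2 against 1006 ± 84.3 CPM (SD, n = 3; log2 fold change −3.19, edgeR adjusted p = 0.000138). The integrin *Itga9*, which binds tenascin-C, was lower in OB-like (−4.65) and chondrocyte-like cells (−4.55) than in mpMSC-like cells. The thrombospondin receptor *Cd36* was higher in EC-like (9.16) and mural-like cells (6.81) than in mpMSC-like cells and lower in aEC- than in bmEC-like cells (−2.69), where its mpMSC-like mean was only 0.103 CPM. The counts, higher first, were 3 and 4 in OB-like, 4 and 7 in chondrocyte-like, 5 and 8 in EC-like, 3 and 2 in mural-like cells, and 3 and 4 between aEC- and bmEC-like cells, to be read against the same shares of all genes. In DESeq2 they were 2 and 3 in dpMSC-like, 1 and 4 in OB-like, 4 and 6 in chondrocyte-like, 5 and 8 in EC-like and 4 and 2 in mural-like cells, and 3 and 4 between aEC- and bmEC-like cells.

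Genes of most similar pattern were sought by Pearson's r of log2 CPM over 45 sums of library and population, among 6353 genes. The sums of a library share its depth and free RNA, so r is a description. *Postn* was closest to *Tpm2* (0.87) and *Col3a1* (0.87), *Vcan* to *Ccdc3* (0.88), and *Fbln1* to *Loxl1* (0.90). *Tnc* was closest to *Kcnk2* (0.91), which is an mpMSC gate marker, and *Ackr4* (0.91). *Sparc* was closest to *Serpinh1* (0.89), a collagen chaperone, *Sparcl1* to *Cav1* (0.93) and *Fbln2* to *Cdh13* (0.91). *Thbs4* was closest to the gate marker *Tnmd* (0.97), and *Thbs2* to *P3h3* (0.88). *Thbs1* had no neighbour above 0.71 (*Chil1*). Among the 10 genes themselves the highest pairs were *Vcan* with *Fbln1* (0.85), *Tnc* with *Vcan* (0.82), *Postn* with *Vcan* (0.81), *Tnc* with *Fbln1* (0.79) and *Sparcl1* with *Fbln2* (0.76). *Postn* with *Tnc* was lower (0.62).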

How the data were processed

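Raw UMI counts per gene and barcode of 3 droplet libraries were used as deposited, and per the labels and methods the authors made these counts with bcl2fastq, fastp, STARsolo of STAR 2.7.3a and Cell Ranger on mm10 with Gencode M23 plus the H2B_GFP sequence. Cells had at least 1500 (metaphyseal) or 1000 (*Pdgfra-GFP*) genes, at most 15% mitochondrial and 30% ribosomal UMIs. Scrublet called 25, 19 and 182 doublets (1.05%, 0.945% and 1.61% of cells), which were kept. The shares expected from the number of cells were 1.91%, 1.61% and 9.06%. Many doublets of the sorted library may thus have gone uncalled, also where called doublets were removed. A cell joined the population of its best panel score (the mean scaled log2 level of the markers) if the score was at least 0.2 and 1.1 times the next. Naming cells by cluster, with names from the same panels, gave 92.6%, 94.9% and 87.3% of cells the same name. The agreement is therefore no check independent of the panels. The names are rebuilt here and may differ from the study's.

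The study tested cells by Wilcoxon's test. Here UMIs were summed per library and population of at least 10 cells and tested with edgeR 4.0.16 (R 4.3.3), TMM scaling, filterByExpr and a library block in 1 model, with DESeq2 1.42.0 as an alternative. The block was used because populations of a library come from 1 suspension, and their deviations correlated with those of mpMSC-like cells at r of 0.109 to 0.689. A simulated 4-fold change of 200 genes between dpMSC- and mpMSC-like sums was found for 194, with 6 false calls among 11193 genes. The simulation covers that comparison only and does not give the power of comparisons with fewer libraries or cells, such as the SC-like one. Cells were thinned to 2000 UMIs for shares, intervals are exact 95% ones that cover counting error only, and a count of 0 was read as up to 3 counts. Positions are from GRCm38 (Gencode M21) and promoters from RefSeq on GRCm38.p6.

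The 10 genes and the lists of relatives and partners were chosen with earlier results of these data known. Relatives and partners were named as the 3 of each list with the largest change among those called and of 1 direction in all libraries, and similar genes as the 3 of highest r. Scripts ran in Python 3.11.15 with numpy 2.4.6, pandas 2.3.3, scipy 1.17.1, scanpy 1.11.5 and matplotlib 3.10.9. Alternatives were other scaling, filters, gates, cells and blocks, leaving out each library, and sums of at least 5 cells, the last chosen after seeing the data.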

Additional observations from a re-analysis of the deposited data

Results flagged for a closer look

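*Fbln1* moved in opposite directions between dpMSC-like and mpMSC-like cells in the 2 kinds of library. Its log2 ratio of dpMSC-like to mpMSC-like CPM was −0.95 and −0.70 in metaphyseal replicates 1 and 2 and 0.31 in the *Pdgfra-GFP* library. The levels behind these were 55.3, 53.0 and 139 CPM in dpMSC-like cells and 107, 85.7 and 112 CPM in mpMSC-like cells. The difference between the libraries was not tested, since the sorted kind has 1 library, and genotype, region and sort cannot be told apart in it.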

How the results depend on the processing

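Counts of the 10 genes called moved as follows, and the causes were not tested. In SC-like cells the 1 call became 0 without the replicate block, 0 in DESeq2's Wald test, 5 with no filter on low counts and 3 with thinned cells. Beside these 4 counts, all-gene calls were 118 of 13251, 359 of 13251, 872 of 28660 and 335 of 8508 genes tested. The SC-like count stayed 1 without metaphyseal replicate 2, which gave no SC-like sum. Leaving out either library that did give one left no fit, so the call was not tested against the loss of a library. In dpMSC-like cells the 2 became 5 without the *Pdgfra-GFP* library, 5 with no filter and 4 with thinned cells (2 to 5 with a library left out). The same 3 settings called 2608 of 11688, 3270 of 28660 and 1758 of 8508 genes tested. In OB-like cells the 8 became 5 without metaphyseal replicate 1, 5 without the block and 5 in DESeq2 (5 to 7 with a library left out). There 2860 of 12775, 2505 of 13251 and 4338 of 13251 genes tested were called. In mural-like cells the 3 became 5 without the *Pdgfra-GFP* library and 5 with no filter (3 to 5), and between aEC- and bmEC-like cells the 2 became 4 with no filter (2 to 3). All-gene calls were 1174 of 11688 and 1702 of 28660 in mural-like cells, and 2108 of 28660 between aEC- and bmEC-like cells. Chondrocyte-like (7 to 8) and EC-like counts (7 to 8) stayed within 1.5 times. Among refitted values of single genes, 790 kept their direction and side of the threshold, 25 lost the threshold, 26 gained it and 23 turned sign, none of the last past the threshold under either setting. *Thbs4* turned in SC-like cells (−0.24 to 0.33 without the block and 1.198 in DESeq2), dpMSC-like cells (0.23 to −0.14 without the block, −0.83 in DESeq2 and −0.17 without doublets), mural-like cells (−0.42 to 1.61 in DESeq2 and 0.34 thinned), EC-like cells (−0.12 to 0.043 without metaphyseal replicate 1, 0.0015 without replicate 2, 0.19 under the stricter gate and 0.44 from clusters) and between aEC- and bmEC-like cells (−3.33 to 1.45 in DESeq2). *Fbln2* turned in OB-like cells (−0.26 to 0.081 without metaphyseal replicate 1, with a range of −0.96 to 0.081 over libraries left out, and to 0.63 under the stricter gate, 0.60 from clusters and 0.066 without doublets). Between aEC- and bmEC-like cells *Postn* (−2.38) and *Tnc* (−1.37) turned to 0.095 and 0.79 under the stricter gate, *Tnc* to 0.33 from clusters, and *Thbs1* (0.34) to −0.051 without metaphyseal replicate 2 (−0.051 to 1.03 over libraries left out). *Sparc* in mural-like cells turned from 0.09 to −0.095 with no filter, *Thbs1* there from 1.68 to −0.017 under the stricter gate, and *Thbs2* in dpMSC-like cells from −0.01 to 0.16 without the *Pdgfra-GFP* library (−0.21 to 0.16 over libraries left out).

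Over all genes, leaving out metaphyseal replicate 1 gave 1523 calls in place of 2956 in dpMSC-like, 2860 in place of 4557 in OB-like, 637 in place of 1310 in mural-like cells and 1023 in place of 2192 between aEC- and bmEC-like cells. Leaving out metaphyseal replicate 2 gave 1849, 815 and 1153 in dpMSC-like, mural-like and aEC-like cells, and 324 in place of 521 in SC-like cells. Without the block the counts were 118 (SC), 1428 (dpMSC), 2505 (OB), 2860 in place of 4519 (chondrocyte), 845 (mural) and 1314 (aEC). With thinned cells they were 335 (SC), 1758 (dpMSC), 2404 (OB), 2502 (chondrocyte), 3078 in place of 5239 (EC) and 1187 (aEC). Thinning left 8508 genes tested in place of 13251, and 8537 in place of 12677 for aEC. With no filter 872 of 28660 genes tested were called in SC-like cells. Counts with thinned cells or no filter thus rest on other numbers of genes tested. DESeq2 moved the share of higher calls in dpMSC-like cells from 57.4% to 46.9%, and the median of all genes by −0.11 in OB-like, 0.15 in mural-like and 0.11 in aEC-like cells. The SC-like comparison gave no value without metaphyseal replicate 1, without the *Pdgfra-GFP* library, under the stricter gate or from clusters, where under 2 libraries had enough cells. Values of *Fbln2* (25, 17 and 10 UMIs in dpMSC-like cells), *Sparcl1* (23, 13 and 74) and *Thbs4* (0, 0 and 147) in stromal cells rest on few UMIs.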
